A study of Xenopus tropicalis with 132 samples.

Results

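Animal caps injected with Foxb1 mRNA were compared with animal caps of the group labelled WI, across all genes, in 4 bulk RNA-seq libraries. These were chosen by their titles (Foxb1 replicates 1 and 2, WI replicates 1 and 2) from the 16 bulk RNA-seq libraries and the 132 samples of the series. The series asked how combinations of transcription factors acting on open chromatin make cells of the Xenopus tropicalis embryo differ from each other; besides the caps it held chromatin and single-cell data, which were not used here. All 16 libraries came from animal caps at gastrula stage 10.5, as ribosome-depleted total RNA read in pairs on a NextSeq 500. The Foxb1 caps had received mRNA of that factor alone. The labels do not say what WI stands for, whether WI caps received any RNA, or whether replicates came from separate clutches of embryos, so p-values measure only the spread between these libraries. Caps injected with Irx3 or with Lhx8 mRNA, 2 libraries each, served as a further comparison, and caps injected with Foxb1 and Eomes mRNA together are mentioned where their values bear on a gene.

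The animal cap is the roof of the blastula, a sheet of pluripotent cells that becomes epidermis when left alone, neural tissue when bone morphogenetic protein (BMP) signalling is blocked, and mesoderm or endoderm under Nodal or fibroblast growth factor (FGF) signals. Foxb1 is a forkhead transcription factor best known in mouse from the neural tube and the posterior hypothalamus. Posterior identity along the axis is carried by Cdx and Hox factors under Wnt and FGF signals, and anterior identity by factors such as Otx2.

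The total counts of the Foxb1 libraries were 3234566 and 4721832, against 4058779 and 4932143 in WI, and the 10 most abundant genes took 6.42% to 8.56% of the counts. Of 26550 targets, 14176 were tested. An ectodermal marker was high in every library. This was tfap2c, an AP-2 factor of the non-neural ectoderm, at 1049 and 1685 CPM (counts scaled to the library total) in Foxb1 and at 1919 and 1052 CPM in WI. It was also at 539.6 and 365 CPM in caps injected with Eomes, so it is a weak check of the label. Other ectoderm genes, such as gata2 and gata3, varied more between the 4 libraries and are given below. The organizer and endoderm genes cer1, sia1 and sia2 had no count in any of the 4 libraries, but other such genes were present. The organizer gene not had 198 and 326 counts in Foxb1 and 81 and 192 in WI. The endoderm gene sox17b.1 had 40 and 21 counts in Foxb1 and 9 and 41 in WI. Both groups have a replicate 1 from the library numbers 1 to 6 and a replicate 2 from 7 to 11, but the libraries did not pair by number. Across the genes tested, Foxb1 1 had a Spearman's rho of 0.944 with WI 1 and 0.967 with WI 2, while Foxb1 2 had 0.969 with WI 1 and 0.959 with WI 2. The 2 Foxb1 libraries had 0.936 with each other and the 2 WI libraries 0.945, so each Foxb1 library was nearer to the WI library of the other number than to its own replicate. These are descriptions over genes, which are not independent. Same-numbered differences are given for some genes and lists only, beside the values of all 4 libraries.

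The injected gene was the clearest difference. The count of foxb1 was 437 and 1220 in the Foxb1 libraries, against 21 and 23 in WI. In CPM these were 136 and 270 in Foxb1, against 5.85 and 4.75 in WI, and in TPM, which also correct for transcript length, 57.8 and 112 in Foxb1, against 1.95 and 1.77 in WI. In the order of TPM foxb1 stood at places 1682 and 897 in Foxb1 and at places 11054 and 11450 in WI. The fitted log2 change was 5.26 (SE 0.98), and the same-numbered differences were 4.46 and 5.72. The edgeR quasi-likelihood test gave p = 0.000166 and an adjusted p of 1 (Benjamini-Hochberg over 14176 genes). With Foxb1 and Eomes mRNA together foxb1 was at 484 and 299.7 CPM, and in the 12 libraries without injected Foxb1 it lay between 0.353 and 17.8 CPM. Thus the 4 libraries labelled as injected with it held the 4 highest values. The counts cannot tell the injected mRNA from the embryo's own transcripts.

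**Figure D1:**
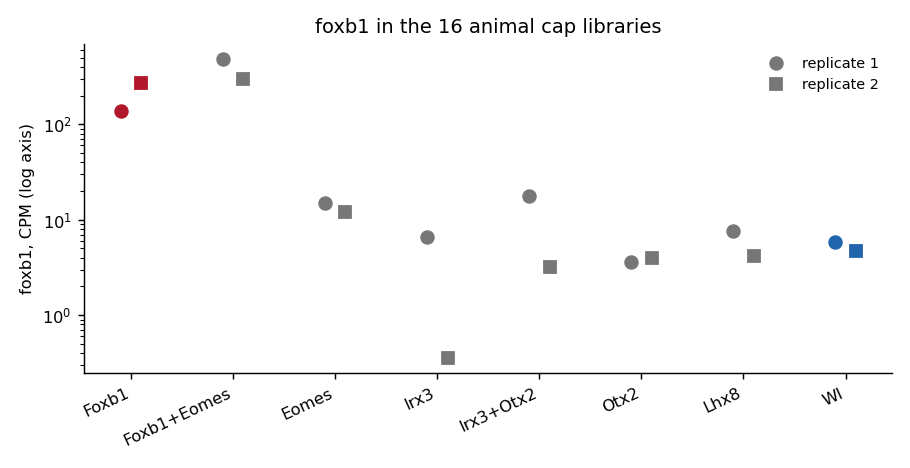
CPM of foxb1 (log axis) in each of the 16 animal cap libraries, by injected mRNA, with circles for replicate 1 and squares for replicate 2. The Foxb1 libraries lie at 136 and 270 CPM and the WI libraries at 5.85 and 4.75 CPM.

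No gene passed an adjusted p of 0.05 in Foxb1 against WI by edgeR (0% of 14176, smallest adjusted p 1). An unadjusted p under 0.05 was reached by 85 genes (0.6%), of which 54 were higher (0.381%) and 31 lower (0.219%) in Foxb1, where evenly spread p-values would give 709. The fitted change was above 0 in 52.7% of genes and below 0 in 46.9%. DESeq2 called 1 gene, foxb1, with a log2 change of 5.26 and an adjusted p of 5.68e-06, and limma-voom called 0. So few small p-values do not show that the caps were alike. Set against the mean of WI, Irx3 and Lhx8 in the same edgeR fit, 1 gene was called (0.00705%): foxb1, with a log2 change of 5.401 (SE 0.628) and an adjusted p of 0.0247. This comparison uses the same Foxb1 and WI libraries. It had 153 genes (1.08%) with an unadjusted p under 0.05, 0.712% of all genes higher and 0.367% lower, and its 1 call was lost when either Foxb1 library, WI 1 or either Lhx8 library was left out, or when only the 11 libraries numbered 1 to 11 were fitted.

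The same-numbered pairs went in opposite directions more often than in the same one. Of 14176 genes, 80 (0.564%) were higher by at least 1 log2 unit in Foxb1 in both pairs and 66 (0.466%) were lower in both, whereas 1013 (7.15%) passed that size in opposite directions. Among the 10727 genes with a mean log2 CPM of at least 2, these counts were 13, 7 and 478. The median difference was 0 in the pair of replicate 1 and 0.00414 in that of replicate 2. In 1129 genes (7.96%) both Foxb1 libraries lay above both WI libraries, and in 1061 (7.48%) both lay below.

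**Figure D2:**
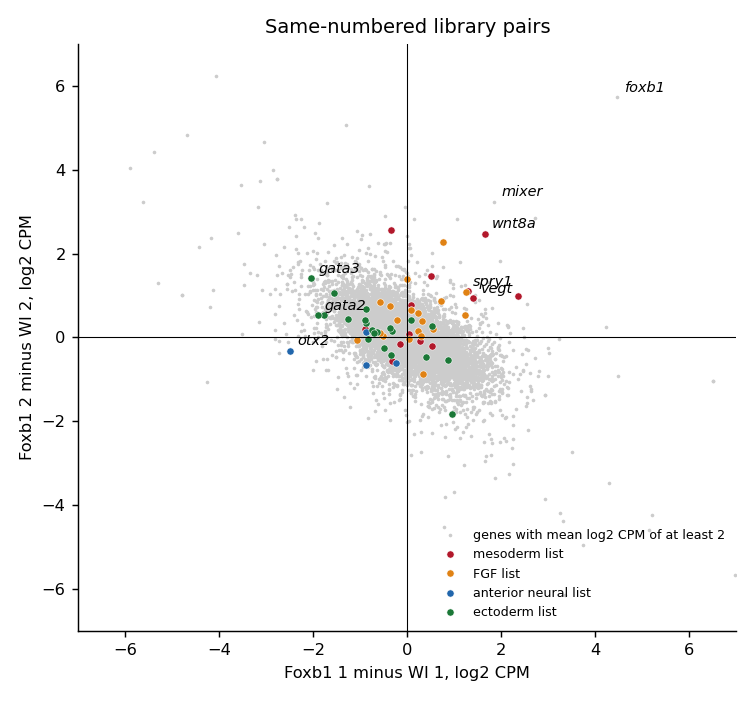
Difference in log2 CPM of Foxb1 1 minus WI 1 (horizontal) and of Foxb1 2 minus WI 2 (vertical), 1 point per gene with a mean log2 CPM of at least 2 (10727 genes, of which 4 fall at or outside the axes), with members of 4 gene lists in colour. The cloud runs from upper left to lower right, and foxb1, mixer and wnt8a stand in the upper right.

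Several genes of the mesoderm, the middle germ layer, lay above WI in both Foxb1 libraries. Of 24 mesoderm genes tested, 10 had both Foxb1 libraries above both WI libraries (41.7%, against 7.96% of all genes tested) and 2 had both below (8.33%, against 7.48%). The gene lists were chosen with earlier results of these data known, so here and in the lists that follow a share set beside that of all genes is a description and no independent evidence. Of the 10 above, fgf4, mespb and myf5 rest on at most 1 count in each WI library and on 2 counts in at least 1 Foxb1 library. The fit put 19 of the 24 higher and 5 lower, with a median log2 change of 0.61, against 0.02 over all genes tested. Setting the 2 members without a count in WI to a floor of 3 counts per library gives 0.42, and the same-numbered pairs had medians of 0.174 and 0.894. The median was 0.183 without Foxb1 2 and 1.24 without Foxb1 1, 0.265 with only the 4 libraries and 0.25 with the replicate block in them, and 0.384 against the mean of WI, Irx3 and Lhx8. The summed level of the list overlapped between the groups, at 717 and 1050 CPM in Foxb1, against 923.5 and 900.3 CPM in WI, so the pairs had opposite signs. None was called, and 3 had an unadjusted p under 0.05. In bulk RNA, more cells of a type and more RNA per cell cannot be told apart.

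Among the transcription factors of the mesoderm and mesendoderm, vegt, a T-box factor that starts endoderm and mesoderm formation, was at 84.0 and 78.4 CPM in Foxb1, against 31.5 and 40.7 CPM in WI. Both Foxb1 libraries were above both WI libraries, with a log2 change of 1.17 (SE 0.581, edgeR p = 0.0664, adjusted p 1). The homeobox gene mixer, a Nodal target of the mesendoderm, was at 5.93 and 8.84 CPM in Foxb1, against 1.39 and 0.62 CPM in WI. Its log2 change was 2.91 (SE 0.674, edgeR p = 0.000857, adjusted p 1), with same-numbered differences of 1.85 and 3.24, and the groups did not overlap. Its relative mix1 was at 9.05 and 10.4 CPM in Foxb1, against 2.51 and 3.92 CPM in WI, again without overlap (log2 change 1.58, SE 0.671, p = 0.0358, adjusted p 1). The third related gene, bix1.1, had 18 counts in Foxb1 2 and none in Foxb1 1 or in either WI library, so it rests on 1 library. Mixer, mix1 and bix1.1 were counted in the endoderm list, given below. The zinc finger factor snai1 was at 9.68 and 21.2 CPM in Foxb1, against 6.69 and 7.44 CPM in WI, and the forkhead gene foxc1 at 1.87 and 3.09 CPM, against 0.557 and 1.24 CPM. For snai1 the Irx3 (12.4 and 16.1 CPM) and Lhx8 (20.3 and 28.2 CPM) libraries were all above Foxb1 1.

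Other mesodermal factors overlapped, had few counts or lay below WI. The T-box gene t (brachyury), the pan-mesodermal marker, was at 14.99 and 42.0 CPM in Foxb1, against 19.2 and 6.82 CPM in WI, and the groups overlapped. Eomes was at 5.93 and 7.51 CPM in Foxb1, against 6.69 and 8.47 CPM in WI, also overlapping. Of the muscle and paraxial factors, myf5 and mespb lay above WI in both Foxb1 libraries but near the limit of detection. Counts of myf5 were 2 and 11 in Foxb1, against 1 and 1 in WI, and those of mespb 2 and 7, against 0 and 1. Others of this kind overlapped. Counts of myod1 were 0 and 8 in Foxb1, against 2 and 4 in WI, and those of mespa 1 and 11, against 3 and 4. For msgn1 they were 0 and 2, against 0 and 0. The lateral mesoderm factor foxf1 lay below WI, at 3.12 and 7.51 CPM in Foxb1, against 10.0 and 7.85 CPM in WI, with no overlap and a log2 change of -0.73 (SE 0.605, p = 0.251).

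Of the secreted signals of the mesoderm, wnt8a, the ventrolateral Wnt ligand, was at 11.2 and 16.6 CPM in Foxb1, against 3.34 and 2.69 CPM in WI. Its log2 change was 2.21 (SE 0.967, edgeR p = 0.0408, adjusted p 1) with same-numbered differences of 1.65 and 2.48, so both pairs showed it. A Wnt ligand of cell movement, wnt11b, was at 9.99 and 15.9 CPM in Foxb1, against 1.67 and 7.85 CPM in WI, without overlap. The secreted mesoderm protein pnhd (pinhead) was at 13.4 and 10.4 CPM in Foxb1, against 5.57 and 4.13 CPM in WI, without overlap. Of 33 Wnt genes tested, 5 had both Foxb1 libraries above both WI libraries and 1 both below (15.2% and 3.03%, against 7.96% and 7.48% of all genes); the 5 were wnt8a, wnt11b, the co-receptor lrp6 and the nuclear factors tcf7 and lef1. The level of lef1 was at 24.4 and 27.2 CPM in Foxb1, against 20.1 and 19.8 CPM in WI.

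The same genes in the other injected caps gave a wider range. In Lhx8 caps mixer was at 7.33 and 8.10 CPM, mix1 at 10.4 and 8.98 CPM and wnt8a at 11.8 and 10.95 CPM, so these libraries were close to or inside the Foxb1 values. In Lhx8 caps vegt was at 158 and 169.5 CPM, above both Foxb1 libraries, and pnhd at 22.3 and 23.4 CPM. The Lhx8 libraries had 14.94 and 41.6 CPM of wnt11b and 1.97 and 4.16 CPM of foxc1. Those of Irx3 had 1.09 and 5.65 CPM of wnt11b and 2.46 and 1.59 CPM of foxc1. In Irx3 caps mixer was at 0.683 and 0.707 CPM and mix1 at 3.14 and 1.94 CPM, near WI. Their vegt was at 16.5 and 60.05 CPM, wnt8a at 0.82 and 7.77 CPM and pnhd at 1.91 and 13.8 CPM. For vegt, wnt8a and pnhd Irx3 1 thus lay below both WI libraries and Irx3 2 above both. For pnhd Irx3 2 was also above both Foxb1 libraries. Caps with Foxb1 and Eomes together had 74.9 and 55.5 CPM of mixer and 454 and 428 CPM of vegt, above all libraries named so far. Against the mean of WI, Irx3 and Lhx8, mixer kept a log2 change of 2.08 (SE 0.464, edgeR p = 0.000635, adjusted p 1), whereas vegt had 0.41 and pnhd 0.32. Of the 24 mesoderm genes, 1 (fgf4, at 2 and 2 counts in Foxb1, none in WI) was above all 6 libraries of WI, Irx3 and Lhx8, where 1.64% of all genes were.

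**Figure D3:**
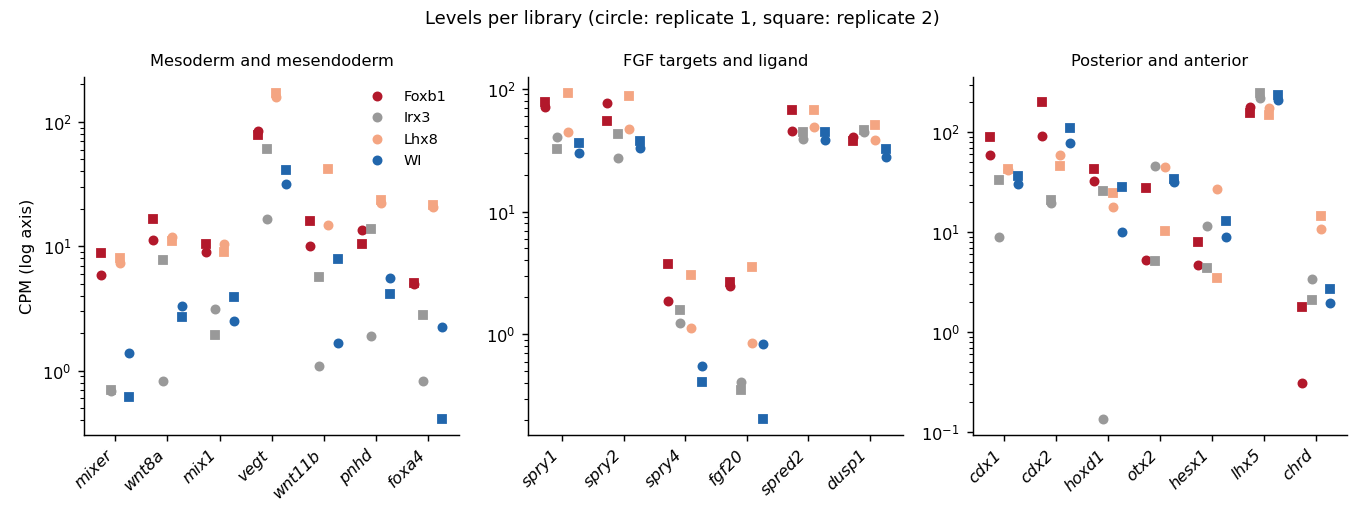
CPM (log axis) of 20 named genes in the libraries of Foxb1, Irx3, Lhx8 and WI caps, 1 point per library, circles for replicate 1 and squares for replicate 2. Foxb1 lies above WI for mixer, wnt8a, mix1, spry1 and cdx1, while the Lhx8 libraries reach or pass the Foxb1 values for mixer, mix1, vegt and foxa4 but not for cdx1 (41.7 and 43.4 CPM).

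Several FGF signalling genes also lay above WI. Of 24 tested, 10 had both Foxb1 libraries above both WI libraries and 1 both below (41.7% and 4.17%, against 7.96% and 7.48% of all genes), with a median log2 change of 0.36 (0.34 with the 1 member absent from WI at the floor) and same-numbered medians of 0.299 and 0.471. The median was 0.12 without Foxb1 2 and 0.54 without Foxb1 1, and 0.143 against the mean of WI, Irx3 and Lhx8. Above all 6 of those libraries lay 1 member, fgf4, at only 2 and 2 counts in Foxb1, where 1.64% of all genes were. Below all 6 lay 1 member, fgf2, where 1.62% of all genes were. The summed level was 1879 and 2228 CPM in Foxb1, against 1869 and 1964 CPM in WI, with overlap. This list shares fgf3, fgf4, fgf8 and fgf20 with the mesoderm list. None was called, and 5 had an unadjusted p under 0.05.

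The feedback inhibitors that FGF signalling switches on included 3 Sprouty genes and spred2. The Sprouty gene spry1 was at 71.2 and 77.3 CPM in Foxb1, against 29.8 and 36.1 CPM in WI, with a log2 change of 1.17 (SE 0.408, edgeR p = 0.0133, adjusted p 1) and same-numbered differences of 1.25 and 1.09. Its relative spry2 was at 76.8 and 54.1 CPM in Foxb1, against 32.9 and 37.2 CPM in WI (log2 change 0.90, SE 0.399, p = 0.0423). The lower expressed spry4 was at 1.87 and 3.76 CPM in Foxb1, against 0.557 and 0.413 CPM in WI (log2 change 2.53, SE 0.77, p = 0.00591), from 6 and 17 counts against 2 and 2. All 3 Sprouty genes were thus higher in both Foxb1 libraries, with adjusted p of 1 each. The related inhibitor spred2 was at 44.96 and 66.5 CPM in Foxb1, against 38.5 and 44.0 CPM in WI, without overlap, and the phosphatase dusp6, which removes ERK phosphate, at 37.2 and 48.2 CPM, against 37.6 and 18.2 CPM, with overlap. In the Lhx8 libraries spry1 was at 44.6 and 91.5 CPM and spry2 at 47.4 and 86.5 CPM, which spanned the Foxb1 values. In the Irx3 libraries they were at 40.7 and 32.3 CPM and at 27.1 and 42.6 CPM, below both Foxb1 libraries.

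Among the ligands, fgf20 was at 2.498 and 2.65 CPM in Foxb1, against 0.836 and 0.207 CPM in WI (log2 change 2.35, SE 0.775, edgeR p = 0.00978, adjusted p 1), from 8 and 12 counts against 3 and 1. The mesodermal ligand fgf8 was at 9.68 and 15.7 CPM in Foxb1, against 9.20 and 9.91 CPM in WI, with overlap. The maternal ligand fgf2 was the member below WI, at 5.62 and 5.97 CPM, against 12.3 and 6.196 CPM, a gap that came almost wholly from WI 1. The receptor fgfr1 differed little, at 227 and 251 CPM in Foxb1, against 194 and 225 CPM in WI. The FGF receptor partner flrt3 was at 14.4 and 13.3 CPM, against 8.36 and 2.48 CPM, without overlap, and the response gene egr1 at 3.43 and 3.31 CPM, against 1.95 and 1.65 CPM. Lhx8 caps had more flrt3, at 29.6 and 41.2 CPM, and Irx3 caps had 6.83 and 25.6 CPM. Against the mean of WI, Irx3 and Lhx8 the log2 change of flrt3 was -0.069 and that of egr1 -0.21.

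**Figure D4:**
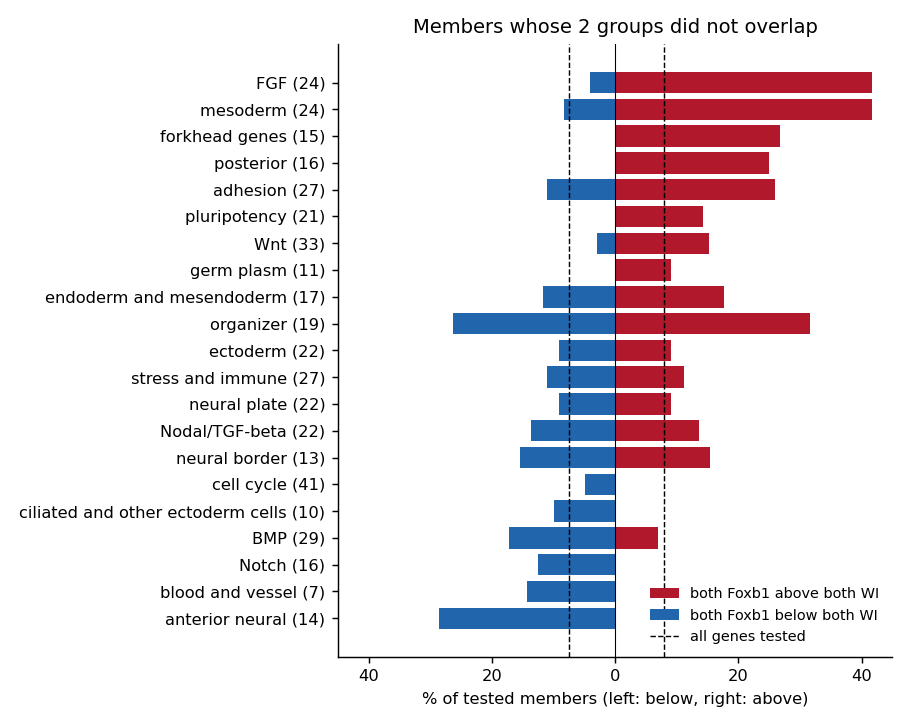
Share of tested members of 21 gene lists (number tested in brackets) in which both Foxb1 libraries lay above (right) or below (left) both WI libraries. Some genes belong to several lists. Dashed lines mark 7.96% above and 7.48% below over all 14176 genes tested; mesoderm and FGF reach 41.7% above and anterior neural 28.6% below.

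Some posterior genes lay above WI and some anterior neural genes below. Of 16 posterior genes tested (Cdx and Hox factors and other hindbrain and tail genes), 4 had both Foxb1 libraries above both WI libraries and 0 below (25% and 0%, against 7.96% and 7.48% of all genes), with a median log2 change of 0.40 and same-numbered medians of 0.182 and 0.241. The median was 0.0242 without WI 1, 0.0621 without Foxb1 2 and 0.22 against the mean of WI, Irx3 and Lhx8. Of 14 anterior neural genes tested, 0 lay above and 4 below (0% and 28.6%, against 7.96% and 7.48% of all genes), with a median of -0.60 and same-numbered medians of -0.56 and -0.368, and -0.791 against the mean of WI, Irx3 and Lhx8. Without Foxb1 2 the anterior median was -1.09. The summed level of the posterior genes was 754 and 805 CPM in Foxb1, against 446 and 659 CPM in WI, and that of the anterior genes 212 and 236 CPM, against 298.5 and 330.0 CPM. Neither sum overlapped between the groups. The largest member of the posterior sum in each library was sp5l, at 404.6 and 293.6 CPM in Foxb1, against 185 and 311.4 CPM in WI. By itself sp5l overlapped between the groups, so the posterior sum depends strongly on 1 overlapping gene. The anterior sum in each library came mostly from lhx5, at 178 and 155 CPM in Foxb1, against 211 and 238 CPM in WI. No member was called or had an unadjusted p under 0.05.

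The homeobox gene cdx1, a regulator of Hox genes, was at 59.0 and 88.8 CPM in Foxb1, against 30.1 and 36.6 CPM in WI. Its log2 change was 1.15 (SE 0.874, edgeR p = 0.213, adjusted p 1) with same-numbered differences of 0.963 and 1.27. The Irx3 libraries had 9.02 and 33.4 CPM and the Lhx8 libraries 41.7 and 43.4 CPM, so both Foxb1 libraries were above all 6. The Hox gene hoxd1, an early Hox gene of the gastrula, was at 32.5 and 42.9 CPM in Foxb1, against 10.0 and 28.3 CPM in WI, and again above the Irx3 (0.137 and 25.8 CPM) and Lhx8 (18.04 and 24.96 CPM) libraries. These were the 2 of 16 posterior genes above all 6, where 1.64% of all genes were. Their relative cdx2 was at 92.7 and 201 CPM in Foxb1, against 78.0 and 110 CPM in WI, so Foxb1 1 lay between the WI libraries; without Foxb1 2 its log2 change was -0.02, against 0.64 with it. Against the mean of WI, Irx3 and Lhx8, where Irx3 and Lhx8 lay between 19.5 and 58.6 CPM, cdx2 had a log2 change of 1.67 (edgeR p = 0.00358, adjusted p 1). The third Cdx gene, cdx4, was at 54.0 and 79.1 CPM in Foxb1, against 51.6 and 45.9 CPM in WI, and the hindbrain factor mafb at 3.43 and 6.41 CPM, against 3.34 and 2.48 CPM.

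On the anterior side, otx2, the head and midbrain homeobox gene, was at 5.31 and 27.4 CPM in Foxb1, against 31.8 and 34.3 CPM in WI. Both Foxb1 libraries were below both WI libraries, but most of the gap came from Foxb1 1 (log2 change -0.99, SE 1.1, p = 0.386). The forebrain repressor hesx1 was at 4.68 and 7.95 CPM in Foxb1, against 8.92 and 12.8 CPM in WI, and the LIM homeobox gene lhx5 at 178 and 155 CPM, against 211 and 238 CPM, without overlap in either. The cement gland gene agr2 was at 0.312 and 2.43 CPM in Foxb1, against 10.6 and 2.89 CPM in WI, so that its gap lay in WI 1 and Foxb1 1. Of the rest, six3 had at most 7 counts in any of the 4 libraries. In the other caps otx2 was at 46.5 and 5.12 CPM with Irx3 and at 45.4 and 10.3 CPM with Lhx8, so the Irx3 replicates alone spanned both Foxb1 values. There hesx1 was at 11.6 and 4.42 CPM with Irx3 and at 27.35 and 3.50 CPM with Lhx8. The lhx5 values were 219 and 245 CPM with Irx3 and 174.5 and 148 CPM with Lhx8. Of the 14 anterior neural genes tested, 0 lay below all 6 of WI, Irx3 and Lhx8, where 1.62% of all genes did.

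Organizer genes, expressed in the dorsal lip that patterns the axis, went in both directions. Of 19 tested, 6 had both Foxb1 libraries above both WI libraries and 5 both below (31.6% and 26.3%, against 7.96% and 7.48% of all genes), with a median log2 change of -0.40. Above lay the notochord homeobox gene not (61.8 and 72.0 CPM in Foxb1, against 22.6 and 39.7 CPM in WI), the forkhead gene foxa4 (4.995 and 5.08 CPM, against 2.23 and 0.413 CPM) and the BMP-like ligand admp (1.87 and 2.21 CPM, against 1.39 and 0.207 CPM). In Lhx8 caps these 3 were higher still, with not at 88.5 and 109 CPM and foxa4 at 20.6 and 21.5 CPM. Below lay the BMP antagonist chrd (chordin), at 0.312 and 1.77 CPM in Foxb1, against 1.95 and 2.69 CPM in WI. It was also below the Irx3 (3.42 and 2.12 CPM) and Lhx8 (10.7 and 14.7 CPM) libraries, with a log2 change against the mean of the 3 groups of -1.94 (edgeR p = 0.00202, adjusted p 1). The LIM homeobox gene lhx1 was at 1.25 and 0.663 CPM in Foxb1, against 2.23 and 3.098 CPM in WI, and foxa2 at 0.624 and 1.11 CPM, against 2.23 and 1.45 CPM. Counts of chrd, lhx1 and foxa2 were 1 to 8 in the Foxb1 libraries. Among the 6 above, gsc had 1 and 2 counts in Foxb1, against 1 and 1 in WI. Likewise shh had 2 and 5 counts in Foxb1, against 2 and 0 in WI. In both genes the counts of Foxb1 1 and WI 1 were equal, so Foxb1 1 stood above WI 1 only after scaling to library size.

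Of 17 endoderm genes tested, 3 lay above WI in both Foxb1 libraries and 2 below (17.6% and 11.8%, against 7.96% and 7.48% of all genes). The 3 were mixer, mix1 and vegt, given above, all of which are also expressed in mesoderm or its precursors. The 2 below were foxa2 and the amino acid transporter slc7a5, at 40.6 and 46.0 CPM in Foxb1, against 54.3 and 46.3 CPM in WI. The list's median log2 change was 0.27 against WI and -0.01 against the mean of WI, Irx3 and Lhx8.

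The ectoderm and neural plate lists had opposite signs in the same-numbered pairs. Of 22 ectoderm genes tested, 2 lay above and 2 below (9.09% each, near the 7.96% and 7.48% of all genes), and the fit put 4 higher and 18 lower, with a median of -0.22. Their summed level was 7181 and 9713 CPM in Foxb1, against 11400 and 8581 CPM in WI, with same-numbered medians of -0.676 and 0.19. Gata2, a factor of the ventral ectoderm, was at 223 and 677 CPM in Foxb1, against 841 and 469 CPM in WI, and gata3 at 7.49 and 28.1 CPM, against 32.1 and 10.3 CPM. In both, Foxb1 1 was the lowest and WI 1 the highest of the 4 libraries, so the 2 pairs had opposite signs. Both Foxb1 libraries lay below both WI libraries for the keratin krt18, at 466 and 407 CPM in Foxb1, against 661 and 482 CPM in WI, and the claudin cldn6.1, at 767 and 834 CPM, against 980 and 1109 CPM. Above lay foxi1, a forkhead factor of ionocytes, at 49.3 and 37.3 CPM, against 34.3 and 30.8 CPM, and tfap2b at 5.31 and 6.41 CPM, against 5.02 and 4.75 CPM.

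**Figure D5:**
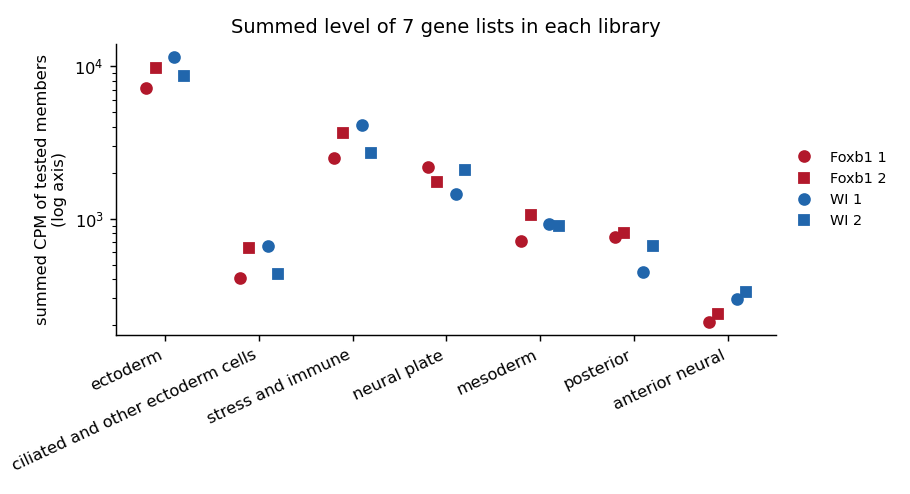
Summed CPM of the tested members (log axis) of 7 gene lists in the 2 Foxb1 and 2 WI libraries. For ectoderm, ciliated and other ectoderm cells, and stress and immune genes Foxb1 1 is the lowest and WI 1 the highest; for posterior both Foxb1 libraries lie above and for anterior neural both lie below WI. The largest posterior member, sp5l, overlaps between the groups.

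Of 22 neural plate genes, 2 lay above and 2 below (9.09% each, again near the 7.96% and 7.48% of all genes, so the members are given as values only), with a median log2 change of 0.09 and same-numbered medians of 0.504 and -0.245. The neural plate factor sox2 was at 246 and 294.5 CPM in Foxb1, against 176 and 282.5 CPM in WI, and sox3 at 530.1 and 507 CPM, against 368 and 653 CPM, with overlap in both. The Iroquois genes irx1 and irx2, which mark broad domains of the neural plate, lay below: irx1 was at 30.3 and 30.1 CPM in Foxb1, against 64.1 and 45.6 CPM in WI, and irx2 at 54.95 and 66.3 CPM, against 102 and 76.2 CPM. The early neural repressor foxd4l1.1 lay above, at 26.5 and 18.3 CPM, against 15.1 and 17.6 CPM; reads may be shared with its relative foxd4l1.2, so its level is uncertain. The proneural gene neurog3 was at 4.995 and 2.21 CPM in Foxb1, against 0.836 and 1.86 CPM in WI, and above the Irx3 and Lhx8 libraries too.

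BMP genes, which keep the cap epidermal, had 2 of 29 above and 5 below (6.9% and 17.2%, against 7.96% and 7.48% of all genes, so the share above is near that of all genes), with a median of -0.21 that was -0.274 in the pair of replicate 1 and 0.281 in that of replicate 2. The receptor acvr1 was above WI, at 140.5 and 187 CPM in Foxb1, against 128.5 and 132 CPM, and the target gene msx1 below, at 79.0 and 57.0 CPM, against 85.0 and 115 CPM. The inhibitory smad6 was at 39.3 and 46.0 CPM in Foxb1, against 47.7 and 47.7 CPM in WI, and the secreted Frizzled-related protein szl (sizzled) at 152 and 160.0 CPM, against 191 and 236 CPM, both without overlap. The ventral target ventx1.1 was at 243 and 216 CPM, against 245 and 246 CPM. Of 22 Nodal and TGF-beta genes, 3 lay above and 3 below (13.6% each, against 7.96% and 7.48% of all genes). The 3 above were mixer, given before, gsc and nodal2, and the 3 below tgfbr1, tgfbr2 and wwp2. Few counts lie behind these shares: gsc had 1 and 2 in Foxb1, against 1 and 1 in WI, and nodal2 1 and 1, against 0 and 0. Those of tgfbr2 were 0 and 0, against 3 and 2. The receptor tgfbr1 was at 125.5 and 95.7 CPM in Foxb1, against 134 and 131 CPM in WI.

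Cell adhesion genes had 7 of 27 above and 3 below (25.9% and 11.1%, against 7.96% and 7.48% of all genes), around a median of 0.01. Integrin itga5, the fibronectin receptor subunit, was at 47.5 and 48.2 CPM in Foxb1, against 24.5 and 37.4 CPM in WI, and above all Irx3 and Lhx8 libraries. The Eph receptors ephb3 (94.3 and 67.6 CPM, against 50.2 and 51.0 CPM), ephb4 (48.1 and 72.7 CPM, against 46.0 and 44.2 CPM) and epha4 (35.3 and 49.1 CPM, against 29.3 and 32.4 CPM) lay above. So did the paraxial protocadherin gene pcdh8.2, at 3.43 and 4.64 CPM, against 1.67 and 1.65 CPM, whereas pcdh7 lay below, at 3.43 and 6.19 CPM, against 11.2 and 8.47 CPM. The Irx3 (7.51 and 13.07 CPM) and Lhx8 (6.48 and 19.49 CPM) libraries were all above Foxb1 for pcdh8.2. For epha4 the Lhx8 libraries (71.05 and 84.07 CPM) were above both Foxb1 libraries and the Irx3 libraries (15.85 and 34.44 CPM) below both. The Lhx8 libraries lay between the Foxb1 values for ephb3 (84.3 and 83.85 CPM) and ephb4 (58.36 and 55.61 CPM). With Irx3, ephb3 was at 49.04 and 53.52 CPM and ephb4 at 56.83 and 36.92 CPM. Among the 15 genes of the forkhead list foxb1, foxc1, foxi1 and foxd3 lay above (26.7%, against 7.96% of all genes). This share counts foxb1, which was injected, so its place above WI was set by the design. The list also leaves out forkhead genes counted in other lists, of which foxa4 and foxd4l1.1 lay above WI and foxf1 and foxa2 below. The level of foxd3, a factor of pluripotent cells and neural crest, was at 11.2 and 8.84 CPM in Foxb1, against 3.34 and 5.37 CPM in WI.

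In the remaining lists 0 to 3 members lay on either side, beside 7.96% above and 7.48% below over all genes. Cell cycle genes had 0 of 41 above and 2 below (0% and 4.88%). Stress and immune genes had 3 of 27 above and 3 below (11.1% each). Pluripotency genes had 3 of 21 above and 0 below (14.3% and 0%). Notch genes had 0 of 16 above and 2 below (0% and 12.5%). Neural border genes had 2 of 13 above and 2 below (15.4% each). Germ plasm genes had 1 of 11 above and 0 below (9.09% and 0%). Shares of different lists are not separate observations, since lists share members. The germ plasm gene above was vegt, which also counts in the mesoderm, endoderm and pluripotency lists. Likewise foxd3 counts in the forkhead, neural border and pluripotency lists, wnt8a and wnt11b in Wnt and mesoderm, and otx2 in anterior neural and organizer. Blood and vessel genes had 0 of 7 above and 1 below (0% and 14.3%). Genes of ciliated and other ectoderm cells had 0 of 10 above and 1 below (0% and 10%). The stress and immune genes summed to 2511 and 3630 CPM in Foxb1, against 4116 and 2700 CPM in WI, with same-numbered medians of -0.477 and 0.664, the same order of libraries as for ectoderm. Their part in the other results was not tested.

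Ranked by the smaller of the 2 same-numbered differences, the 10 highest genes were foxb1, mixer, wnt8a, mix1, pnhd, zfyve28-like.1, foxc1, spry1, foxa4 and fkbpl, out of 580 of 8180 named and abundant genes whose Foxb1 libraries both lay above WI. Of these 10, 1 (foxb1) lay above all 6 of WI, Irx3 and Lhx8, where 1.64% of all genes were. The ranking used these same values and is no test. Fkbpl, an immunophilin-like gene, was at 8.12 and 2.87 CPM in Foxb1, against 2.79 and 1.24 CPM in WI, a gap smaller than that between the Foxb1 libraries.

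The 10 lowest, of 537, were arhgef28-like, mid1ip1, kcnh5, sowahc, cpne3, timm9, bbs12-like, mest, angpt4 and lhx1, with smaller differences than at the upper end. The potassium channel gene kcnh5 was at 4.06 and 4.198 CPM in Foxb1, against 7.80 and 8.26 CPM in WI (log2 change -0.96, SE 0.552, edgeR p = 0.107, adjusted p 1). The mitochondrial import chaperone timm9 was at 14.7 and 8.40 CPM in Foxb1, against 24.8 and 14.9 CPM in WI. The angiopoietin gene angpt4 was at 105 and 126 CPM, against 169 and 239 CPM, but the Irx3 (33.2 and 78.4 CPM) and Lhx8 (98.96 and 72.3 CPM) libraries lay lower still. Both Foxb1 libraries were below all 6 of WI, Irx3 and Lhx8 for 2 of the 10, bbs12-like (1.87 and 1.55 CPM, against 3.34 and 3.92 CPM in WI) and mest (1.56 and 1.99 CPM, against 2.79 and 4.13 CPM in WI), where 1.62% of all genes were.

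The genes of the next paragraphs were chosen after their values were seen. Among the 5 smallest p-values were foxb1, mixer, dscr6 and 2 bare identifiers. RefSeq lists Xdscr6 as a synonym of ripply3, a co-repressor of T-box factors. Its level was 10.6 and 12.4 CPM in Foxb1, against 0.836 and 2.48 CPM in WI, from 34 and 56 counts against 3 and 12. The log2 change of dscr6 was 2.74 (SE 0.665, edgeR p = 0.00124, adjusted p 1), with same-numbered differences of 3.2 and 2.17. The Irx3 and Lhx8 libraries had 1.095 to 3.01 CPM of dscr6, and against the mean of WI, Irx3 and Lhx8 its log2 change was 2.65 (adjusted p 0.385; DESeq2 2.66 with an adjusted p of 0.0138). The identifiers Xetrov90024187m (5.62 and 14.1 CPM in Foxb1, against 0.557 and 1.65 CPM in WI) and Xetrov90024189m (4.995 and 5.52 CPM, against 0.557 and 0.413 CPM) carry no gene name in the files. The transcription factor gene sim1 was at 3.75 and 3.54 CPM in Foxb1, against 0.836 and 1.45 CPM in WI, and above all 6 of WI, Irx3 and Lhx8. With Foxb1 and Eomes mRNA together, however, sim1 was at 1.43 and 1.21 CPM, within the WI values. It was above both Foxb1 libraries in caps injected with Eomes (7.48 and 8.24 CPM), Otx2 (6.50 and 8.26 CPM) or Irx3 and Otx2 (9.86 and 5.82 CPM).

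Foxb1 mRNA was also present in the caps injected with Foxb1 and Eomes together. In 10 of 14176 genes (0.0705%) all 4 libraries with Foxb1 mRNA lay above all 12 others, and in 5 (0.0353%) all 4 lay below. How many genes any other 4 of the 16 libraries would give was not tested, so these counts are a description only. Beside foxb1 the 10 included dscr6 (10.6 and 12.4 CPM with Foxb1 alone, 38.4 and 26.9 CPM with both mRNAs, at most 4.22 CPM in the 12 others) and the posterior genes cdx1 and hoxd1. The cdx1 values were 59.0 and 88.8 CPM with Foxb1 alone and 80.4 and 124 CPM with both mRNAs, against at most 43.4 CPM elsewhere. Those of hoxd1 were 32.5 and 42.9 CPM with Foxb1 alone and 60.3 and 63.6 CPM with both, against at most 28.3 CPM. The Hedgehog pathway factor gli1 was at 13.4 and 17.2 CPM with Foxb1 alone and 37.9 and 26.1 CPM with both, against at most 13.3 CPM, so its lowest value lay close to the others. The exocyst-related gene exoc3l1 was at 2.19 and 1.77 CPM with Foxb1 alone and 6.44 and 3.04 CPM with both, against at most 0.62 CPM. Both bare identifiers named above, the cilium transport gene ift43 and 1 further bare identifier completed the 10. The 5 below, among them hsd11b2 and fgf12, lay at low levels, with fgf12 at 0.624 and 1.11 CPM with Foxb1 alone and 0.715 and 1.21 CPM with both, against at least 1.64 CPM in the 12 others.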

How the data were processed

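Bulk RNA-seq of Xenopus tropicalis animal caps was analysed from per-target tables, 1 per library. The authors deposited estimated counts and TPM for each target, per the file headers; STAR 2.5.0 is named in the submitters' processing notes, and the tool that made the estimated counts, the annotation and the genome build are not given in the sources used here. Of the estimated counts 16.7% were not whole, and all were rounded. All 16 libraries of 8 groups entered 1 edgeR 4.0.16 fit in R 4.3.3 (filterByExpr, TMM factors, robust quasi-likelihood, group as the only term), and adjusted p-values are Benjamini-Hochberg over 14176 genes. The filter keeps a gene that is high in 1 group alone, so members that passed it are not all members. CPM use TMM-scaled library sizes, and same-numbered differences use log2 CPM with a prior count of 2. A permutation test of 2 against 2 libraries cannot go below 0.333. Depth was 3234566 to 4932143 counts in these 4 libraries, so genes under about 10 counts carry large counting error.

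Named genes were foxb1, the 10 highest and 10 lowest by the smaller same-numbered difference among sufficiently abundant (mean log2 CPM 2 or more) genes that carry a symbol and whose groups did not overlap, and members of the gene lists. The members and lists were chosen with earlier results of these data known. DESeq2 1.42.0, limma 3.58.1 (voom), other scalings and filters, other sample sets, replicate terms and leaving out each library were tried. The scripts were tested on simulated counts with the same preset dispersion for every gene, not the dispersion of these libraries. That test therefore does not show how many real changes the fit could find here. Of 26550 identifiers 8183 are bare Xetrov and 5462 bare LOC identifiers, and 12327 matched a RefSeq symbol. Near-identical copies may share reads. Chromatin and single-cell files were not used.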

Additional observations from a re-analysis of the deposited data

How the results depend on the processing

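Counts of called genes in Foxb1 against WI, 0 as reported, were 1 with DESeq2, 1 with only the 4 libraries compared, 1 with the replicate number as a block in those 4 libraries, and 15 (12 higher, 3 lower) with no filter on low counts; each single call was foxb1, and the cause of the change without the filter was not tested. The 15 held mixer (log2 change 2.92, adjusted p 0.0109), bix1.1 (6.63, adjusted p 0.00862) and the identifiers Xetrov90024187m and Xetrov90024189m. Of the 15, LOC100496919 and Xetrov90026378m had identical counts (1 and 1453 in Foxb1, 15 and 112 in WI), so 1 signal was counted under 2 identifiers. Several of the 15 rested on 1 library. Of the 4 libraries, bix1.1 had counts only in Foxb1 2 (18), LOC100485682 only in Foxb1 1 (33) and Xetrov90027365m only in WI 1 (42). They were 0 under limma-voom, both other scalings, the stricter filter, the 11 libraries numbered 1 to 11 and the block by library series, and 0 to 0 when each library was left out. A block pairing Foxb1 1 with WI 2 and Foxb1 2 with WI 1, added after the data were seen, also called 1. The numbers were not taken as pairs, since there were only 2: the difference between replicates in Foxb1 correlated across genes with that in WI at r = -0.244, but with that in Foxb1+Eomes at 0.393, in Irx3 at 0.112 and in Lhx8 at 0.0659.

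The foxb1 log2 change was called with 5.26 by DESeq2, 5.28 with no filter, 5.24 with 4 libraries and 5.17 with the replicate block, and ranged from 4.69 to 5.70 over the libraries left out. Against the mean of WI, Irx3 and Lhx8, 1 call became 4 with DESeq2 (3 higher, 1 lower), 47 with no filter (31 higher, 16 lower) and 0 with the 11 libraries, and 0 to 2 over the libraries left out, those of Irx3 and Lhx8 added after the data were seen. The 1 lower call of DESeq2 was irx3, the gene injected into the Irx3 caps of that mean. The lower calls with no filter held irx3 and lhx8, both injected into caps of that mean. These calls follow from the choice of comparison groups. Some of the 47 were pairs of identifiers with identical counts in the 4 libraries. Genes past 1 log2 unit in both pairs in the same direction numbered 146, and 220 with a prior count of 0.5. Over 14 alternatives, 1544 of 1563 values for 115 named genes kept their direction and side of the threshold, 8 passed it and 11 turned sign, in 8 genes, all on leaving out 1 library. Their ranges were 0 to 7.59 for bix1.1, -0.0244 to 1.12 for cdx2, -0.36 to 0.0154 for eomes, -1.55 to 0.08 for gata2, -1.49 to 0.79 for gata3, -0.0666 to 0.62 for sox2, -0.33 to 0.50 for sox3 and -0.50 to 0.38 for tfap2c. Medians kept their sign under all 14 alternatives for mesoderm (0.183 to 1.24), FGF (0.12 to 0.54), posterior (0.0242 to 0.51), forkhead (0.0311 to 0.439, with the injected foxb1 counted) and anterior neural genes (-1.09 to -0.412). They did not for organizer (-0.474 to 0.332), ectoderm (-0.475 to 0.137) or BMP genes (-0.341 to 0.0838). Nor did they for Wnt (-0.162 to 0.201), adhesion (-0.13 to 0.279) and neural plate genes (-0.116 to 0.527) or any remaining list, with endoderm at 0 to 0.999. With 2 libraries a group, differences under the gap between replicates could not be resolved.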
